A study of Mus musculus with 2 samples.

Results

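The miR-17-92 and miR-106b-25 clusters are paralogous groups of miRNA genes, each transcribed as 1 unit and cut into several hairpins. The genes were chosen by symbol: 9 of the 2202 miRNA genes in the count tables, with Mir17, Mir18, Mir19a, Mir20a, Mir19b-1 and Mir92-1 on chromosome 14 and Mir106b, Mir93 and Mir25 on chromosome 5. They were counted by small RNA sequencing of heart tissue from female B6CASTF1/J mice aged 36 days, an F1 cross of C57BL/6 and CAST mice. The series has 1 group of 2 libraries, biological replicates 1 and 2, with no treatment, no other genotype and no control group. Each library comes from a heart with a record of its own, and the labels give both the same donor code. Whole heart tissue was used, so for any miRNA fewer cells of a type and less RNA per cell cannot be told apart.

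miRNAs are short RNAs of about the length printed below that bind target mRNAs mainly through the seed, bases 2 to 8 from the 5′ end. The miR-17-92 cluster is known for driving proliferation in tumours and for a role in heart, lung and B cell development, where its loss in mice is lethal around birth. The miR-106b-25 cluster lies inside Mcm7, which encodes a subunit of the DNA replication helicase, and its miRNAs restrain the cell cycle inhibitor Cdkn1a. Members of both clusters fall into 4 seed groups, and genes of 1 seed group are thought to share many targets.

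The mature sequences for which the genes are named are shown because the results below divide by seed and by how far a sequence is unique. Capitals mark the seed. All 9 genes matched RefSeq (GRCm38.p6).

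The miR-17 group, seed AAAGUGC, holds 4 members:
miR-17-5p (Mir17): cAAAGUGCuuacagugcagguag
miR-20a-5p (Mir20a): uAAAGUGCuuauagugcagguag
miR-106b-5p (Mir106b): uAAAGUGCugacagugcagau
miR-93-5p (Mir93): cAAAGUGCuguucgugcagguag

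The miR-25/92 group, seed AUUGCAC, holds 2 members:
miR-92a-3p (Mir92-1): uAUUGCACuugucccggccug
miR-25-3p (Mir25): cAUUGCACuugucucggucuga

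The miR-19 group, seed GUGCAAA, holds 2 members:
miR-19a-3p (Mir19a): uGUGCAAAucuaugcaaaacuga
miR-19b-3p (Mir19b-1): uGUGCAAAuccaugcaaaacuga

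The miR-18 group, seed AAGGUGC, holds 1 member:
miR-18a-5p (Mir18): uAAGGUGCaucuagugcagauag

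Counted from 1 at the 5′ end, miR-20a-5p differs from miR-17-5p by C1U and C12U, and miR-93-5p from miR-17-5p by U10G, A11U, C12U and A13C. miR-19b-3p differs from miR-19a-3p by U11C alone. Over the 21 positions they share, miR-25-3p differs from miR-92a-3p by U1C, C14U and C18U. The GC content was 57.1% in miR-92a-3p, 52.2% in miR-93-5p, 50% in miR-25-3p and 47.8% in miR-17-5p. It was lower in miR-18a-5p (43.5%), miR-106b-5p (42.9%), miR-20a-5p and miR-19b-3p (39.1% each) and miR-19a-3p (34.8%).

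On mm10 the chromosome 14 cluster spans 836 nt on the plus strand (115043671 to 115044506), in the order Mir17, Mir18, Mir19a, Mir20a, Mir19b-1 and Mir92-1. In GENCODE M21 all 6 hairpins lie in an exon of the only Mir17hg transcript that spans them, Mir17hg being the long non-coding host gene (115042879 to 115046727). The chromosome 5 cluster spans 498 nt on the minus strand (138165321 to 138165818), in the order Mir106b, Mir93 and Mir25. All 3 lie in intron 13 of the principal Mcm7 transcript, which has 15 exons. Mir93 and Mir25 also fall in an exon of 1 of the 3 Mcm7 transcripts that span them. The counts are per hairpin gene, so the 5′ and 3′ arms of a hairpin are not separated.

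Reads assigned to miRNA genes on the gene's strand numbered 2074961 in replicate 1 and 1766135 in replicate 2, and levels are given as CPM, counts per 1000000 of these reads. A further 42.0% and 39.8% of all reads had more than 1 mapping place, and no gene's count includes them. The tissue label was checked on 8 heart muscle miRNA genes: 5 were detected, none was at 0 in both hearts, and their levels added up to 6211 and 8750 CPM in replicates 1 and 2. Most of that came from Mir208a, the miRNA of the alpha myosin heavy chain gene (3809 and 5069 CPM), and Mir499, of a slow myosin gene (2214 and 3475 CPM). Near the floor of 3 counts stood Mir133b (2 and 10 counts), Mir133a-2 (2 and 2), Mir133a-1 (8 and 2) and Mir1a-1 (8 and 7). Mir1a-2 went the other way from the sum, with 121 and 66 counts. Whether reads of these Mir133 and Mir1a genes are among those with more than 1 mapping place was not tested. Their low counts therefore need not mean low levels of these miRNAs.

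Of the 9 cluster genes, 7 reached the detection limit, set at 2 CPM in each heart, against 15.2% of all 2202 miRNA genes. In counted reads Mir93 was the highest member, with 12713 counts in replicate 1 and 9246 in replicate 2, or 6127 CPM (95% exact interval 6021 to 6234) and 5235 CPM (5129 to 5343). It stood at rank 23 and rank 26 of all miRNA genes, between Mirlet7e (5928 ± 659 CPM, SD, n = 2) and Mir151 (5293 ± 759 CPM) by mean. The 3 values differ by less than their spread between the hearts. Intervals here and below cover counting error only, because PCR copies of a molecule cannot be recognised in these reads.

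The other 2 genes of the chromosome 5 cluster were lower. Mir106b had 2805 and 1559 counts, a level of 1352 and 883 CPM. Mir25, whose miRNA is known to target the cardiac calcium pump Serca2a, had 1088 and 923 counts, which is 524 and 523 CPM. In replicate 1 the ratio of Mir93 to Mir106b was 4.53 (exact interval 4.35 to 4.72), and in replicate 2 it was 5.93 (5.62 to 6.26). The ratio of Mir93 to Mir25 lay between 11.0 and 12.4 in replicate 1 and between 9.36 and 10.7 in replicate 2. Mir93 alone made up 76.6% of the cluster's counts in replicate 1 and 78.8% in replicate 2.

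In the chromosome 14 cluster 4 of 6 genes were detected. Mir92-1, whose miRNA restrains blood vessel growth when it acts in endothelial cells, had 5392 counts in replicate 1 and 6333 in replicate 2, which is 2599 and 3586 CPM. Mir17, the first hairpin of the transcript, had 4672 and 2326 counts, or 2252 and 1317 CPM. Mir20a, of the same seed, had 2091 and 1320 counts, or 1008 and 747 CPM. Mir18 was the lowest detected member, with 222 and 116 counts, or 107 CPM (93.4 to 122) and 65.7 CPM (54.3 to 78.8). By mean, Mir18 stood at 86.3 ± 29.2 CPM, between Mir547 (93.6 ± 71.8 CPM) and Mir669c (85.6 ± 7.89 CPM), and the 3 overlap in spread.

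The counts of the miR-19 genes were at or near 0. Mir19a had 0 counts in both hearts, which allows up to 3 counts, or 1.45 CPM in replicate 1 and 1.70 CPM in replicate 2. Mir19b-1 had 2 counts in each heart. Set against 3 counts per library, Mir17 was 1557-fold higher than this limit for Mir19a in replicate 1 and 775-fold higher in replicate 2. Both hairpins lie in 1 transcript. These values are of counted reads: whether reads of miR-19a are among those with more than 1 mapping place, which no gene's count includes, was not tested. Reads of miR-19b-3p that map to several places are not in the count of Mir19b-1, so this count need not mean a low level. Of all 2202 genes, 71.5% had 0 counts in both hearts. No member, Mir19a included, had a read on the opposite strand.

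**Figure D1:**
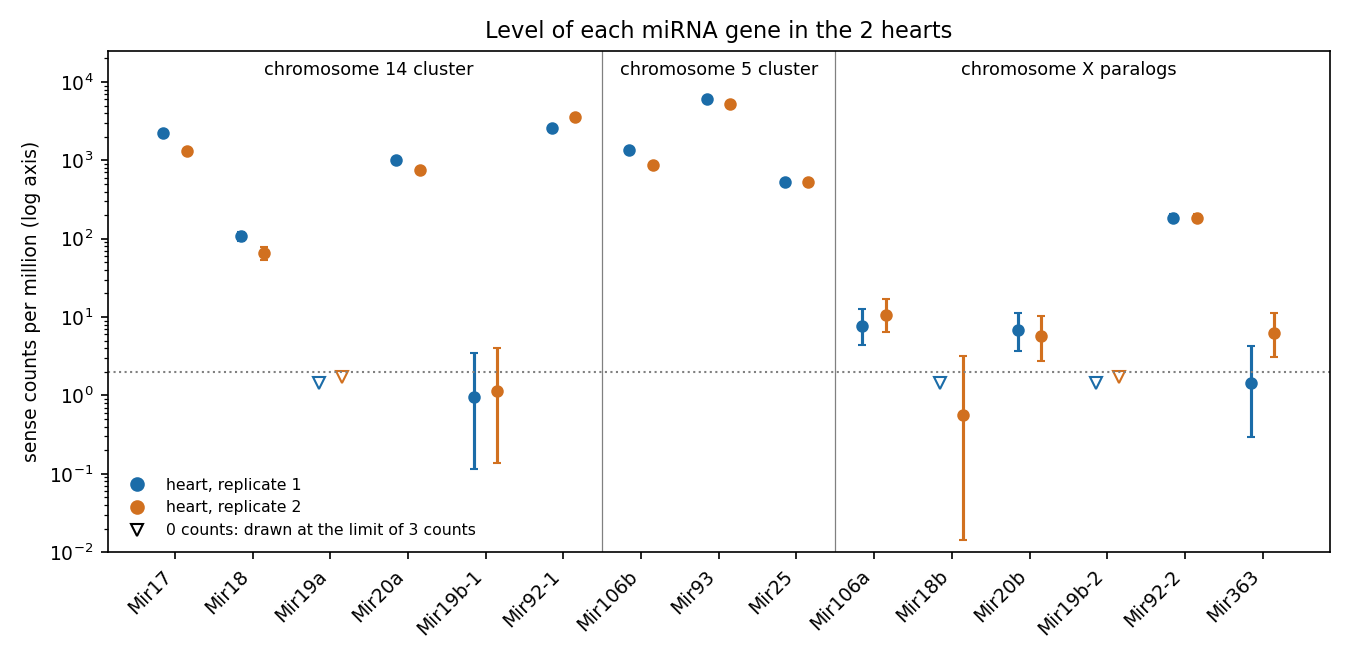
Level of the 9 cluster genes and their 6 chromosome X paralogs in each heart, in sense CPM on a log axis. Bars are 95% exact intervals for counting error, open triangles stand for 0 counts and are drawn at the limit of 3 counts, and the dotted line is the detection limit of 2 CPM. Mir93 is highest, Mir19a has 0 counts in both hearts, and the X paralogs lie below the detected cluster genes except Mir92-2, which lies above Mir18.

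In counted reads, the order of mean levels was Mir93, Mir92-1, Mir17, Mir106b, Mir20a, Mir25, Mir18, Mir19b-1 and Mir19a. Reads of miR-92a-3p and miR-19b-3p that map to several places are not counted, so Mir92-1 and Mir19b-1 can stand too low in it. The order was the same in CPM per nt of hairpin (hairpins of 80 to 107 nt). The order was also the same within each heart. Between the hearts, the ranges of Mir17 and Mir106b overlapped, and so did those of Mir106b and Mir20a. As unpaired ranges, which ignore that each heart gives both genes, these neighbours do not differ beyond their spread over the 2 hearts. Within a heart they did differ beyond counting error: Mir17 exceeded Mir106b by 1.67 times (1.59 to 1.75) and 1.49 times (1.40 to 1.59), and Mir106b exceeded Mir20a by 1.34 times (1.27 to 1.42) and 1.18 times (1.10 to 1.27). Mir92-1 exceeded Mir17 by 1.15 times (1.11 to 1.20) in replicate 1 and by 2.72 times (2.60 to 2.86) in replicate 2. Mir19b-1 and Mir19a, at 2 and 0 counts, could not be told apart.

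**Figure D2:**
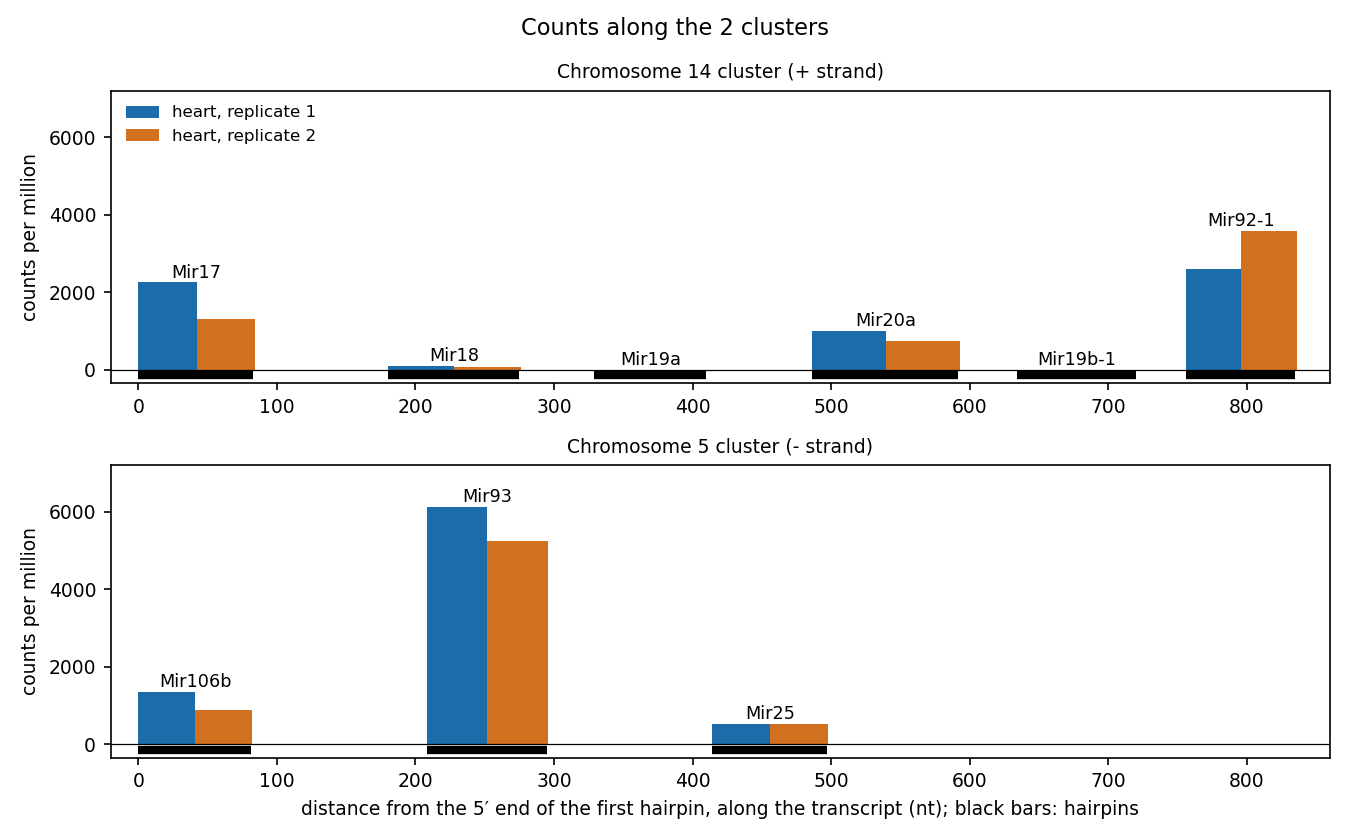
Sense CPM at each hairpin of the chromosome 14 cluster (top) and the chromosome 5 cluster (bottom), against the distance in nt from the start of the first hairpin. Black bars are the hairpins, and the coloured bars are the 2 hearts. Adjacent hairpins of 1 transcript differ widely: Mir19a and Mir19b-1 show no visible bar beside Mir20a, and Mir93 stands above Mir106b and Mir25.

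How far a read can be placed differs between members. Among the hairpins of all 2202 genes, the printed sequence of 7 members occurs in no other hairpin, and reads from its 5′ end differ from every other hairpin at 10 to 18 nt. For miR-19a-3p that length is 11 nt. Places outside annotated hairpins were not examined. miR-92a-3p also occurs in Mir92-2, and miR-19b-3p in Mir19b-2, both on the X chromosome (52741838 to 52741928 and 52741983 to 52742066, minus strand). The hairpins of these pairs are shown, with the stretch they share in capitals, because a read that lies wholly within it cannot be assigned to 1 gene. Reads from the other arm, miR-92a-1-5p or miR-19b-1-5p, occur in no other annotated hairpin and can be counted.

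The miR-92a hairpins share 22 nt:
Mir92-1: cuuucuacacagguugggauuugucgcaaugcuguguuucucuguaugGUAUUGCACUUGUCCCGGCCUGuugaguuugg
Mir92-2: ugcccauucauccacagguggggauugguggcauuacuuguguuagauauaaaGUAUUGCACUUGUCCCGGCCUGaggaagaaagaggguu

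The miR-19b hairpins share 25 nt:
Mir19b-1: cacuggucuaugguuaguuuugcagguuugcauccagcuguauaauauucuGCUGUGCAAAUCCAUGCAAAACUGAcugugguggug
Mir19b-2: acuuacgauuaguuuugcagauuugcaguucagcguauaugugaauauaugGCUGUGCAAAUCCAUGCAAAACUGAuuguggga

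The Mir19a hairpin, with miR-19a-3p in capitals, shares no run of 18 nt with another hairpin:
Mir19a: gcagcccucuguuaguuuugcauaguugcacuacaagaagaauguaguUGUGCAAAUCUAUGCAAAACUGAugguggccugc

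A read that starts at the first base of miR-92a-3p needs 22 nt to differ between Mir92-1 and Mir92-2, while the printed miRNA has 21 nt. For miR-19b-3p it needs 24 nt, while the miRNA has 23 nt. Shorter reads map to both places and are in no gene's count, so the counts of Mir92-1, Mir92-2, Mir19b-1 and Mir19b-2 can be too low as levels of these miRNAs. How much of the 2355334 and 1985503 reads that mapped to several places came from them was not tested.

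The third cluster of this family, on the X chromosome, was low apart from Mir92-2. The sum of its 6 genes was 201 and 207 CPM, against 5966 and 5717 CPM for the chromosome 14 cluster and 8003 and 6640 CPM for the chromosome 5 cluster. Mir92-2 had 385 and 325 counts, 92.1% and 88.8% of the X cluster. Mir106a had 16 and 19 counts and Mir20b 14 and 10. Mir363 had 3 and 11 counts, Mir18b 0 and 1, and Mir19b-2 none. The ratio of Mir92-1 to Mir92-2 lay between 12.6 and 15.6 in replicate 1 and between 17.4 and 21.9 in replicate 2. Reads that map to both are in neither count, so this need not be the ratio of what these genes produce. Mir17 exceeded Mir106a, whose miRNA differs from miR-17-5p by U10A alone, by 292 times (180 to 511) and 122 times (78.2 to 204).

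The counts leave out reads of miR-92a-3p and miR-19b-3p that map to several places. In the summed counts of the 2 clusters, the miR-17 group made up the larger part in each heart. Within the chromosome 14 cluster this did not hold in replicate 2, where Mir92-1 had 62.7% of the counts, Mir17 23.0% and Mir20a 13.1%. The sum of the 4 members of the miR-17 group was 10738 CPM in one heart (replicate 1) and 8182 CPM in the other. Beside them, Mir106a, Mir20b and Mir6383 carry the seed, and the members held 99.9% and 99.8% of the counts of all 7 genes. The 2 members of the miR-25/92 group summed to 3123 and 4108 CPM. Beside them, Mir92-2, Mir363, Mir32, Mir92b and Mir367 carry the seed, and the members held 93.1% and 94.3% of the counts of all 7. Mir32 had 79 and 59 counts, Mir92b 12 and 41, and Mir367 and Mir6383 had 0.

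The hearts also differed in markers of other cell types. The erythroid list (3 of 3 detected, none at 0) added up to 45889 CPM in replicate 1 and 7589 in replicate 2. Most of it was Mir451a (41391 and 5739 CPM), while Mir144 had 3406 and 934 CPM and Mir486 1092 and 917 CPM. The endothelial list (3 of 3, none at 0) summed to 99058 and 66887 CPM, nearly all from Mir126a (97017 and 65811 CPM). Mir221 had 1983 and 1015 CPM, and Mir222 58.8 and 60.6 CPM. The leukocyte list (4 of 4, none at 0) summed to 4121 and 5447 CPM, with Mir155 as its largest part (2615 and 3190 CPM). Mir150 (971 and 1955 CPM) and Mir223 (34.7 and 82.7 CPM) were also higher in replicate 2, while Mir142 was lower (499.8 and 219 CPM). The smooth muscle list (2 of 2, none at 0) summed to 43118 and 44232 CPM, most of it Mir143 (41989 and 42366 CPM). Mir145a had 1129 and 1866 CPM. After the scaling used below, the log2 ratio of replicate 2 over replicate 1 was -0.16 for Mir143 and 0.55 for Mir145a. The fibroblast list (3 of 4, Mir199a-1 at 0 in both) summed to 2567 and 3672 CPM. The list of embryonic stem cell miRNAs, the Mir290a to Mir295 cluster (0 of 6 detected in both hearts), summed to 1.45 and 190 CPM, with Mir292 at 3 and 157 counts and the other 5 at 0 in replicate 1. The part of blood, vessel, embryonic or other cells in the members' differences below was not tested.

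The 2 hearts were then compared gene by gene, after TMM scaling, which sets the libraries to a common level through the bulk of genes. How each gene's counts divide between the hearts was tested with a two-sided exact binomial test over all 359 miRNA genes with 10 or more counts, with Benjamini-Hochberg adjustment. It compares 2 libraries beyond counting error, not conditions, and a single heart has no replicate. All 7 detected members passed an adjusted p of 0.05, 6 with the higher value in replicate 1 and 1 in replicate 2. Over all genes tested, 44.3% passed, 24.2% with the higher value in replicate 1 and 20.1% in replicate 2. Among the 140 genes averaging at least 100 CPM, 77.9% passed, so passing is common at the level of these genes. With library size alone, which shifts every log2 ratio by 0.17 towards replicate 2, 67 genes were higher in replicate 1 and 103 in replicate 2, against 87 and 72 with TMM. The members then stood at 5 and 1, since Mir25 no longer passed.

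Mir17 showed the largest difference among the members, 1.92-fold higher in replicate 1 (exact interval 1.83 to 2.02; adjusted p = 1.48e-153, exact binomial). Mir18 was 1.83-fold higher in replicate 1 (1.46 to 2.31), Mir106b 1.72-fold (1.62 to 1.83), Mir20a 1.52-fold (1.41 to 1.63) and Mir93 1.32-fold (1.28 to 1.35). Mir25 was 1.13-fold higher in replicate 1 (1.03 to 1.23; adjusted p = 0.0169, exact binomial), and with library size alone its log2 ratio was -0.0048 (adjusted p = 0.991). In counted reads, which leave out those of miR-92a-3p that map to several places, Mir92-1 went the other way. Mir92-1 was 1.23-fold higher in replicate 2 (1.18 to 1.27; adjusted p = 1.45e-27, exact binomial). The direction of Mir17, Mir18, Mir20a, Mir92-1, Mir106b and Mir93 was the same with TMM, with DESeq2 size factors and with library size alone.

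On the log2 scale, as replicate 2 over replicate 1, the 7 members had a median of -0.60. The 140 genes averaging at least 100 CPM had a median of -0.07, and the median size of their ratio without regard to sign was 0.29, with quartiles of 0.15 and 0.71. Mir17 (-0.94), Mir18 (-0.87) and Mir106b (-0.78) lay beyond the upper quartile of size. Mir20a (-0.60), Mir93 (-0.40) and Mir92-1 (0.30) lay between the median and the upper quartile, and Mir25 (-0.17) below the median.

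**Figure D3:**
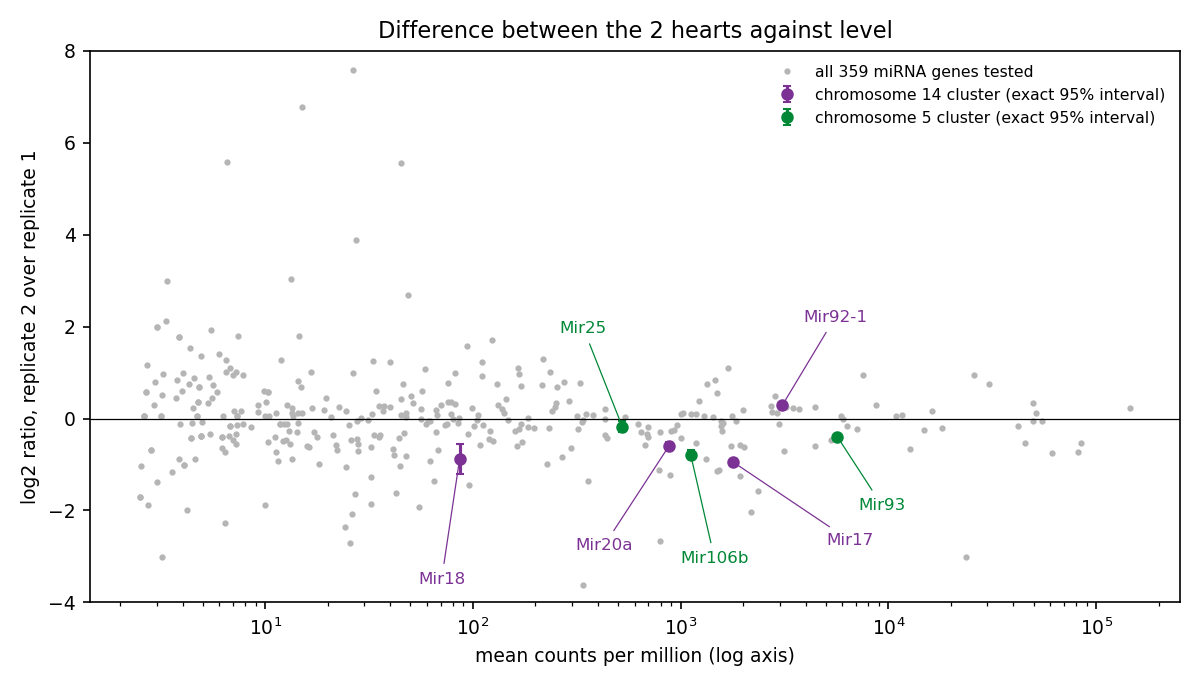
Log2 ratio of replicate 2 over replicate 1 (TMM) against mean CPM on a log axis, for all 359 miRNA genes tested (grey) and the 7 members tested (coloured, with 95% exact intervals). Mir92-1 lies above 0 and the other 6 members below it, within the cloud of all genes.

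The counts of genes of 1 transcript therefore did not keep 1 ratio between the hearts. The ratio of Mir92-1 to Mir17, looked at after their values were seen, was 1.15 in replicate 1 and 2.72 in replicate 2, a change of 2.36 times (Fisher's exact test, two-sided, adjusted p = 1.38e-168). Reads of miR-92a-3p that map to several places are not in the count of Mir92-1. Its ratios therefore need not follow the level of the miRNA. The ratio of Mir17 to Mir18 lay between 18.4 and 24.2 in replicate 1 and between 16.6 and 24.4 in replicate 2, a change of 0.953 times with an adjusted p of 0.732 by the same exact test. The ratio of Mir106b to Mir25 was 2.58 (2.40 to 2.77) and 1.69 (1.56 to 1.83), a change of 0.655 times (adjusted p = 3.34e-14, exact). Of 14 pairs compared in this way, 11 changed, and of the 8 among them that share a transcript, 6 changed. Pairs of other miRNA genes were not compared, so these counts cannot be called particular to the clusters. Of single genes averaging at least 100 CPM, 77.9% differed between the hearts. These tests take no scaling, since both counts come from the same library, and they too compare 2 libraries only.

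By seed group, the sums of the members went opposite ways. The miR-17 group was 1.48-fold higher in replicate 1 (1.45 to 1.51) in sum, with all 4 members in that direction. The miR-25/92 group was 1.17-fold higher in replicate 2 (1.13 to 1.21) in sum, which rests on Mir92-1, since Mir25 went the other way. Reads of miR-92a-3p that map to both Mir92-1 and Mir92-2 are not in this sum, and its counts do not separate the arms. This sum and the ratio below therefore need not follow the level of the seed. The ratio of the miR-17 group to the miR-25/92 group was looked at after the members' values were seen. It was 3.44 (3.34 to 3.54) in replicate 1 and 1.99 (1.94 to 2.05) in replicate 2. That change passed Fisher's exact test (two-sided, p = 3.39e-162, not adjusted), which compares 2 libraries beyond counting error only. Outside the clusters, Mir92b was 3.57-fold higher in replicate 2 (1.84 to 7.46; adjusted p = 8.15e-05, exact binomial). Mir92-2, Mir32, Mir363, Mir106a and Mir20b did not pass the test, with log2 ratios of -0.18, -0.36, 1.77, 0.30 and -0.41.

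**Figure D4:**
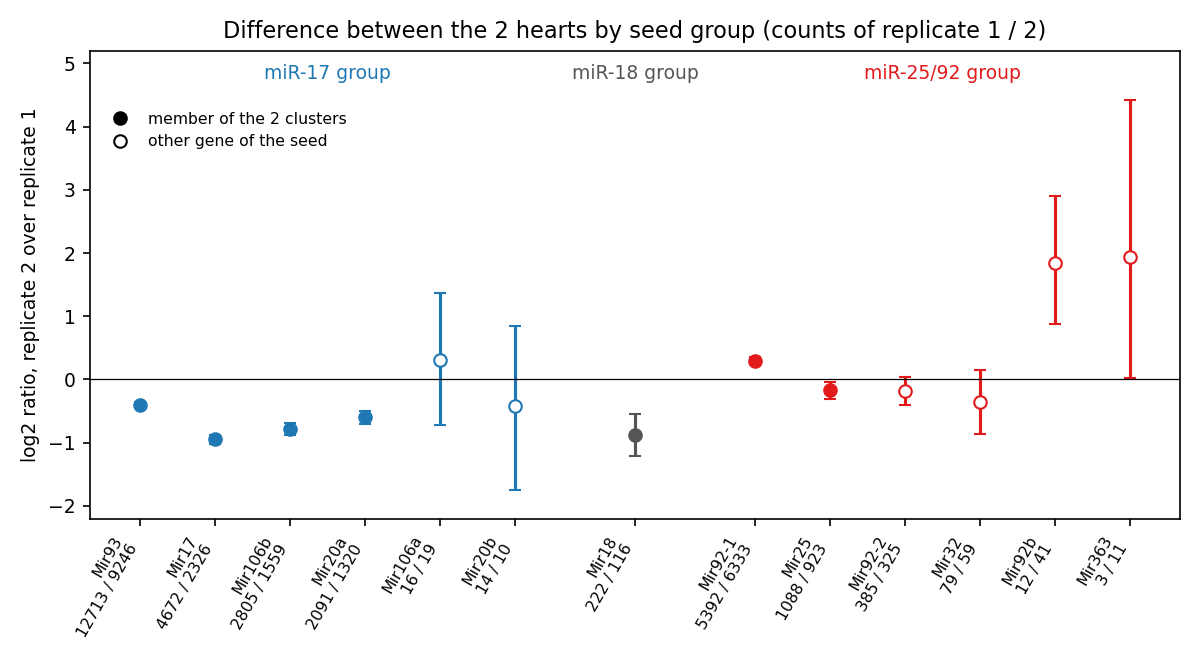
Log2 ratio of replicate 2 over replicate 1 (TMM) with 95% exact intervals, by seed group, for every miRNA gene of the seed with 10 or more counts. Filled points are members of the 2 clusters, open points are other genes of the seed, and the counts of replicate 1 and 2 stand under each name. All filled points of the miR-17 group lie below 0, and Mir92-1 and Mir25 lie on opposite sides of 0.

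In sum and after TMM scaling, the chromosome 14 cluster was 1.17-fold higher in replicate 1 (1.14 to 1.20). The chromosome 5 cluster was 1.36-fold higher there (1.32 to 1.39). In CPM, which do not have that scaling, the chromosome 14 cluster summed to 5841 ± 176 CPM (SD, n = 2) and the chromosome 5 cluster to 7322 ± 963 CPM. The ratio of the chromosome 5 to the chromosome 14 cluster was 1.34 (1.31 to 1.37) in replicate 1, and it was 1.16 (1.13 to 1.19) in replicate 2. That change, of 0.866 times, passed Fisher's exact test (two-sided, p = 1.5e-15), but it turns on Mir92-1. With only members whose printed sequence occurs in 1 hairpin, which leaves out Mir92-1 and Mir19b-1, the ratio was 2.38 (2.31 to 2.45) in replicate 1 and 3.12 (3.00 to 3.23) in replicate 2, so the change went the opposite way. Reads of miR-92a-3p and miR-19b-3p that map to several places are missing from the chromosome 14 sum. The printed sequences of the chromosome 5 members occur in no other hairpin. Both ratios can thus be too high, and which cluster is higher as a level cannot be told.

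Over the 140 genes averaging at least 100 CPM, the log2 ratio and the GC content of the hairpin had a Pearson's r of 0.242 and a Spearman's rho of 0.268. This is across genes of the same 2 libraries, which are not independent. The GC values given with the sequences are of the mature miRNAs, not of the hairpins. Hairpin GC content was 63.1% in Mir25, 57.3% in Mir106b, 55.7% in Mir93 and 47.5% in Mir92-1. It was 45.8% in Mir20a, 45.2% in Mir17 and 43.8% in Mir18, against a median of 50.2% over the 140 genes. The part of base composition in the members' differences was not tested.

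Among 134 other genes averaging at least 100 CPM, those nearest to the summed chromosome 14 cluster in log2 ratio (-0.23) were Mir132 (-0.24), Mir652 (-0.24) and Mir154 (-0.22). Nearest to the chromosome 5 cluster (-0.44) were Mir337 (-0.44), Mir486 (-0.42) and Mir379 (-0.42). Likeness over 2 libraries is 1 number per gene, and of the runs of 18 nt in the hairpins of Mir337 and Mir486, 44 of 80 and 73 of 111 recur in another hairpin.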

How the data were processed

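Small RNA libraries from 2 hearts were used, 1 group with replicate numbers from the labels; the labels give the age once in months and once in days, and days are used. For each miRNA gene of GENCODE M21 the authors deposited unnormalised counts of reads mapped to mm10, per the notes deposited with the files. Which aligner and counter made them is not stated in the sources used here. Each file has 3 columns of counts and 4 rows that name no gene (63.0% and 64.6% of all reads), which stayed out of library sizes. The sense-strand column was used. Symbols, places and hairpins came from GENCODE M21, which holds all 2202 gene IDs; printed sequences come from RefSeq.

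CPM, exact (Clopper-Pearson) 95% intervals, ratios and binomial tests were computed with scipy 1.17.1. TMM factors came from edgeR 4.0.16, with DESeq2 1.42.0 size factors and library size as alternatives. Log2 ratios have a prior count of 0.5. The per-gene test was run across all genes with 10 or more counts and a threshold of 0.05. The labels give each heart its own record but both the same donor code, so the spread between the replicates may be technical, and p-values measure the difference of 2 libraries only.

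The genes, gene lists and tests were chosen with earlier results of these data known. Named genes were the 9 members, 6 X paralogs, all genes of a member's seed, the nearest genes in rank and ratio, and the marker lists. Tests of pairs of members and of seed groups were added after seeing the data.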

Additional observations from a re-analysis of the deposited data

How the results depend on the processing

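Under the alternatives of scaling, filter, strand and prior count, the differences between the hearts kept their direction and call in 6 of the 7 members tested; Mir25 lost its call with library size alone. With 2 libraries, leaving either out moves a mean by less than the SD by construction and says nothing about stability. Both cluster sums moved with the denominator: over all reads they were 2116 CPM (chromosome 14) and 2656 CPM (chromosome 5), and with counts without regard to strand, whose total is smaller, 8096 and 10159 CPM. The CPM of 8 members moved with these denominators in the same way, and Mir19a was 0 throughout. In counted reads, the ratio of the chromosome 5 to the chromosome 14 cluster, 1.25 ± 0.127 (SD, n = 2), was 2.75 with only members whose mature sequence occurs in 1 hairpin and 2.30 with the median member. The log2 change of that ratio between the hearts, -0.21, became 0.39 with members whose mature sequence occurs in 1 hairpin, a set without Mir92-1. The number of members detected was 7 at 1, 5 and 10 CPM and in either library alone. The number of members that differ was 7, and 6 with library size alone; the number of genes that differ was 159, and 148 to 170 over the alternatives. The comparison of hearts cannot be made without either library. Mir19a, Mir19b-1, Mir18b and Mir19b-2 had 2 counts or fewer per library, too few to test a difference between the hearts.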
